A study of Rattus norvegicus with 4 samples.

Results

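Oxidative phosphorylation genes were followed through rat choroid plexus and kidney proximal tubules as 90 genes of the 32883 in the deposited tables. They were chosen by name, as those of the list of genes with a name whose symbol starts with MT-, NDUFA, NDUFB, NDUFC, NDUFS, NDUFV, SDH, UQCR, CYC1, COX4, COX5, COX6, COX7, COX8 or ATP5. Of the 90, 13 are encoded in the mitochondrial genome (the symbols starting MT-) and 77 in the nucleus. The 77 were grouped as 34 for complex I, 5 for complex II, 8 for complex III, 13 for complex IV and 17 for complex V. Of the 77, 71 are structural subunits. The others are assembly factors, an inhibitor and listed copies, which the sums and counts of their complex include. The list at hand was a shortened one of the highest expressed genes of the male choroid plexus, and its 1985 genes outside the mitochondrial genome all had at least 57.8 TPM there, an abundance corrected for length and scaled to a fixed sum, so subunit genes below that level are missing from the 77.

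The respiratory chain of the mitochondrial inner membrane passes electrons from NADH (complex I) and succinate (complex II) through ubiquinone to complex III, by cytochrome c to complex IV, and on to oxygen, and the proton gradient so built drives ATP synthesis by complex V. Complexes I, III, IV and V mix subunits encoded in the mitochondrial genome with subunits encoded in the nucleus, while every subunit of complex II is nuclear. Choroid plexus epithelium and kidney proximal tubule both carry large amounts of fluid and solute, are driven by the Na+/K+-ATPase and are rich in mitochondria.

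The 4 libraries came from Sprague Dawley rats of 9 weeks, with no treatment or genetic change named. Whole choroid plexus was pooled from 5 males and, separately, from 5 females. Epithelial cells of male choroid plexus were released with collagenase and captured by fluorescence-activated cell sorting (FACS) with an antibody to the cotransporter NKCC1, in a pool of 10 rats, and proximal tubules were picked by hand from digested male kidney in a pool of 5 rats. By the study's methods the kidneys came from its male rats, so the proximal tubule pool and the male choroid plexus pool may share animals. Each condition therefore has 1 library, no replicate and no test: differences are given as values, and intervals (95% Wilson) and standard errors cover counting error only. The libraries held between 23873318 and 28324976 expected counts, of which 7352952 in the proximal tubule library lay outside the mitochondrially encoded genes.

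The cell type of each library was checked by marker genes, on TPM rescaled after the 13 mitochondrially encoded genes were taken out. All 10 choroid plexus epithelium markers were named, and their summed TPM was 276618 in the male, 318773 in the female and 425151 in the FACS library, against 86.5 in the proximal tubule library, where 7 of the 10 had under 3 counts. TTR made up most of the choroid plexus sums, and the other 9 markers summed to 16259.8 TPM in the male, 13689.5 in the female, 9909 in the FACS and 86.3 in the proximal tubule library. Between FACS and male the 10 markers had a median log2 ratio of -0.65, with 4 at least 2-fold lower (SLC4A5, OTX2, ENPP2 and KCNJ13) and 0 higher, where 27.5% of all genes were at least 2-fold lower. The 7 named of 10 proximal tubule markers summed to 10777 TPM in the proximal tubule library and to between 124 and 154 TPM in the others. Of the 10777 TPM, SLC7A13 had 7371 and SLC3A1 3125, while SLC34A1 had 67.7 and SLC22A8 was lower than in the male, at 14.9 against 132 TPM. The 4 named markers of other nephron segments summed to 109 TPM in the proximal tubule library, of which KCNJ1 had 89.3, and to under 1 TPM in each of the others. The pair of named immune markers (CD74 and CSF1R) summed to 2808 TPM in the FACS library, 394 in the male, 234 in the female and 19.7 in the proximal tubule library. The 3 named stroma markers summed to 332 TPM in the FACS library, 224 in the male, 176 in the female and 11.3 in the proximal tubule library. Of these, DCN had 255 TPM in the FACS library against 111 in the male, PDGFRA 52.5 against 91.0 and PDGFRB 24.6 against 22.3. In the order FACS, male, female and proximal tubule, the 3 named endothelium markers summed to 56.0, 54.6, 39.9 and 4.05 TPM. The blood gene HBB had 1336 TPM in the male, 724 in the female, 293 in the FACS and 204 in the proximal tubule library. The part that these other cells have in the results below was not tested, and in such bulk RNA fewer cells of a type and less RNA per cell cannot be told apart.

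Mitochondrially and nuclear encoded members took very different shares of the 4 libraries. On the 13 mitochondrially encoded genes lay 1511819 counts for the male library, 1095567 for the female, 1107574 for the FACS and 17777261 for the proximal tubule library, which are 5.34%, 4.32%, 4.64% and 70.7% of all counts. The 77 nuclear genes held 402037, 406589, 238028 and 335758 counts in the same order. As a share of all counts, the nuclear genes had 1.42% in the male (1.42 to 1.42%), 1.60% in the female (1.60 to 1.61%), 0.997% in the FACS (0.993 to 1.001%) and 1.34% in the proximal tubule library (1.33 to 1.34%). On this scale the proximal tubule lay slightly below the male choroid plexus.

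Once the mitochondrially encoded genes were taken out of the total, the order changed. The nuclear genes then held 1.499% of the remaining counts in the male (1.495 to 1.504%), 1.67% in the female (1.67 to 1.68%), 1.05% in the FACS (1.04 to 1.05%) and 4.57% in the proximal tubule library (4.55 to 4.58%). In TPM, which divides by length, their sum moved from 37325 to 40734 in the male, from 41355 to 44131 in the female and from 23411 to 24949 in the FACS library, but from 31002 to 111183 in the proximal tubule library. The place of the proximal tubule library, lower than both whole choroid plexus libraries before removal and highest after it, was thus set by the total against which the nuclear genes were read.

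**Figure D1:**
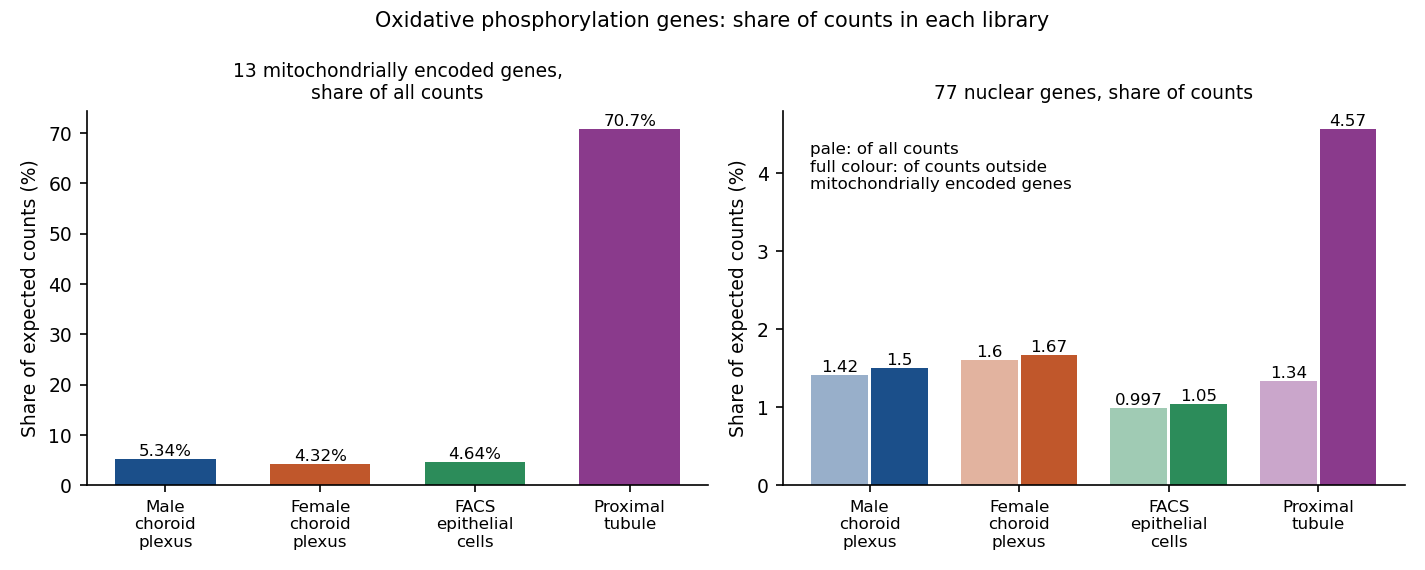
Share of expected counts (%, linear axes) held by the 13 mitochondrially encoded genes (left) and by the 77 nuclear oxidative phosphorylation genes (right) in each library, 1 bar for a value of 1 library, with pale bars for the share of all counts and full bars for the share of counts outside the mitochondrially encoded genes. The proximal tubule library stands at 70.7% on the left, and on the right at 1.34% of all counts and 4.57% of the counts outside them.

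For each count on a nuclear member there were 3.76 counts on mitochondrially encoded genes in the male, 2.69 in the female, 4.65 in the FACS and 52.9 in the proximal tubule library. Per length, as a ratio of summed TPM, these were 2.24, 1.52, 2.63 and 23.3. Male and female choroid plexus differed here in both terms, since the female library had the lower mitochondrial share and the higher nuclear share. The FACS library was below the male in both shares, and by more in the nuclear one.

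Within the mitochondrially encoded genes, those of complex IV held most counts in every library. They had 58.7% of the mitochondrially encoded counts in the male, 62.2% in the female, 73.9% in the FACS and 56.9% in the proximal tubule library. MT-CO1 (ENSRNOG00000034234), the catalytic subunit of cytochrome c oxidase, was the highest single gene with 42.3% in the male (42.3 to 42.4%), 43.4% in the female, 55.5% in the FACS (55.4 to 55.5%) and 39.1% in the proximal tubule library. MT-CO3 had 10.5%, 12.2%, 11.9% and 10.2% in the same order, and MT-CO2, which takes electrons from cytochrome c, had 5.86%, 6.63%, 6.56% and 7.56%.

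The 7 complex I genes showed the opposite order across the choroid plexus libraries, with 23.1% in the male, 18.5% in the female and 11.8% in the FACS library, while the proximal tubule had 24.9%. MT-ND2 varied most of them, with 5.17% in the male (5.14 to 5.21%) and 3.12% in the female (3.08 to 3.15%). It had 1.70% in the FACS (1.68 to 1.72%) and 7.46% in the proximal tubule library (7.44 to 7.47%). MT-ND4 followed the same order with 4.298%, 3.75%, 2.61% and 7.85%, and so did MT-ND4L, the small gene that overlaps its start, with 0.133%, 0.0947%, 0.0770% and 0.245%. MT-ND1 and MT-ND5 were also lowest in the FACS library but highest in the male.

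MT-ND1 had 9.04%, 7.61%, 5.00% and 6.41%, and MT-ND5 had 3.65%, 3.003%, 1.70% and 2.30%. MT-ND3 stayed between 0.446% in the proximal tubule and 0.584% in the female library, and MT-ND6, the member on the other DNA strand, between 0.201% and 0.349%. Of the rest, MT-CYB, the mitochondrially encoded subunit of complex III, had 11.3%, 12.4%, 9.41% and 9.34%. MT-ATP6, which forms the proton channel of complex V with the c-ring, had 6.88%, 6.86%, 4.85% and 8.82%. The FACS library thus had, relative to the male, 0.329 times the MT-ND2 share and 1.31 times the MT-CO1 share. These are shares of a fixed total, so a lower share of some genes raises that of others. In TPM before rescaling, MT-CO1 had 20524 in the male and 18770 in the FACS library, and MT-ND2 had 4159 and 964.

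**Figure D2:**
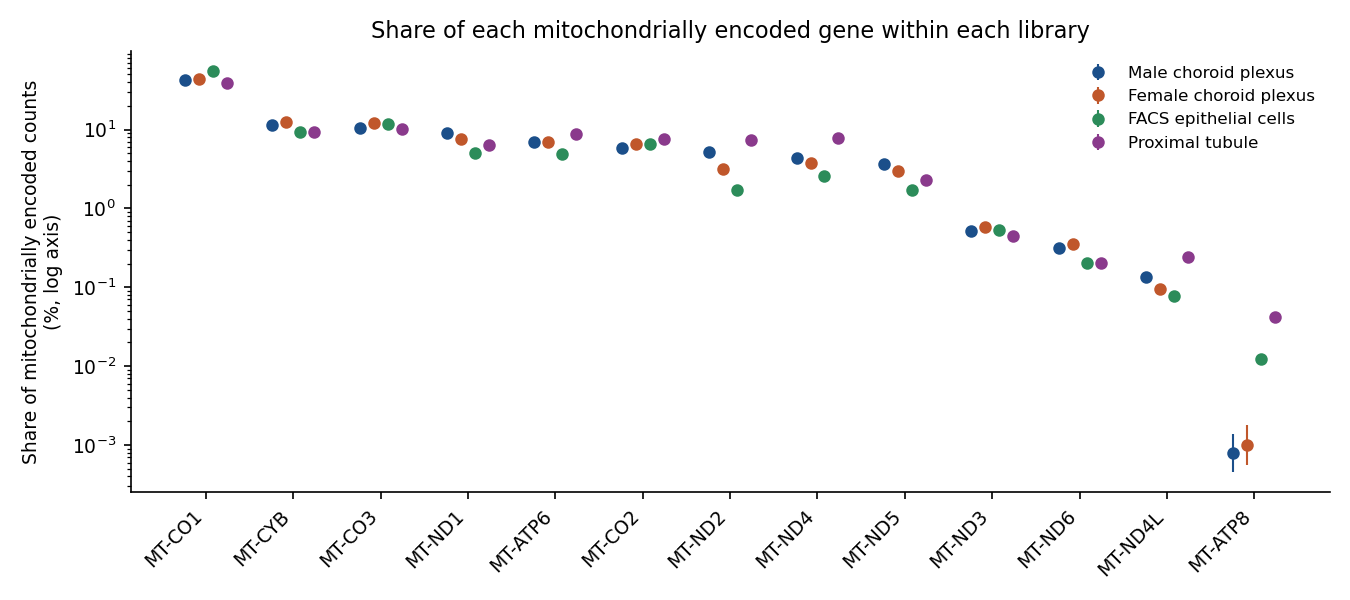
Share of each of the 13 mitochondrially encoded genes in the mitochondrially encoded counts of its library (%, log axis), 1 point for each library with its 95% Wilson interval, mostly smaller than the point. MT-CO1 is highest in every library, between 39.1% and 55.5%, and MT-ND2 spans from 1.70% in the FACS to 7.46% in the proximal tubule library.

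MT-ATP8 had a TPM that could not be read. Its counts were 12 in the male, 11 in the female, 135 in the FACS and 7383 in the proximal tubule library. The effective length, which is the number of start positions a fragment of the library's size can have on the transcript, was 2.54 bases in the male, 2.43 in the female, 1.06 in the FACS and 0 in the proximal tubule library. Its TPM was therefore 193, 188 and 4908 in the first 3 and listed at 0 in the proximal tubule library, where it had the most counts. In the FACS library these 135 counts made up 7.97% of the mitochondrially encoded TPM.

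Other short members carried the same limit. The 9 of the 90 members with an effective length under 100 bases in the male library had 0.649% of the members' counts and 8.07% of their TPM there, 0.680% and 8.32% in the female, 0.594% and 13.5% in the FACS, and 0.729% and 11.6% in the proximal tubule library. NDUFA1 (ENSRNOG00000040005), a small membrane subunit of complex I, had 37.3 counts in the male, 47.4 in the female, 0.40 in the FACS and 9.63 in the proximal tubule library, at effective lengths of 3.72, 3.56, 1.66 and 1.28 bases. These counts stand for 447, 591, 9.99 and 717 rescaled TPM, so its value rests on few reads in every library. NDUFA3, also of complex I, had 591 counts in the male, 463 in the female, 166 in the FACS and 338 in the proximal tubule library. Its effective lengths were 24.48, 23.46, 16.02 and 13.75 bases, so its TPM and ratios below carry this limit too.

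The 77 nuclear members were compared between libraries as log2 ratios of the rescaled TPM plus 1, and a ratio of 2-fold or more was counted. In whole tissue they covered a narrow range. Its lower end was set in advance, since members were chosen from genes of at least 57.8 TPM in the male. The highest in the male was COX8A, a complex IV subunit, with 2459 rescaled TPM, and the lowest SDHAF4, an assembly factor of complex II, with 75.4. The upper quartile was 3.28 times the lower in the male, 3.79 times in the female, 3.18 times in the FACS and 29.3 times in the proximal tubule library. There, COX6C had 10856 TPM, UQCRC1 had 3.16 TPM and 3 members were listed at 0. The members were not chosen by their proximal tubule level, so the wider spread there cannot be told apart from the way of choice. Of the 77, 13 were among the 100 highest of all 32883 genes in the male, 16 in the female, 10 in the FACS and 15 in the proximal tubule library. These ranks were by TPM before rescaling, with the mitochondrially encoded genes kept. As the members come from a list of genes high in the male, high places in choroid plexus follow in part from the choice.

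**Figure D3:**
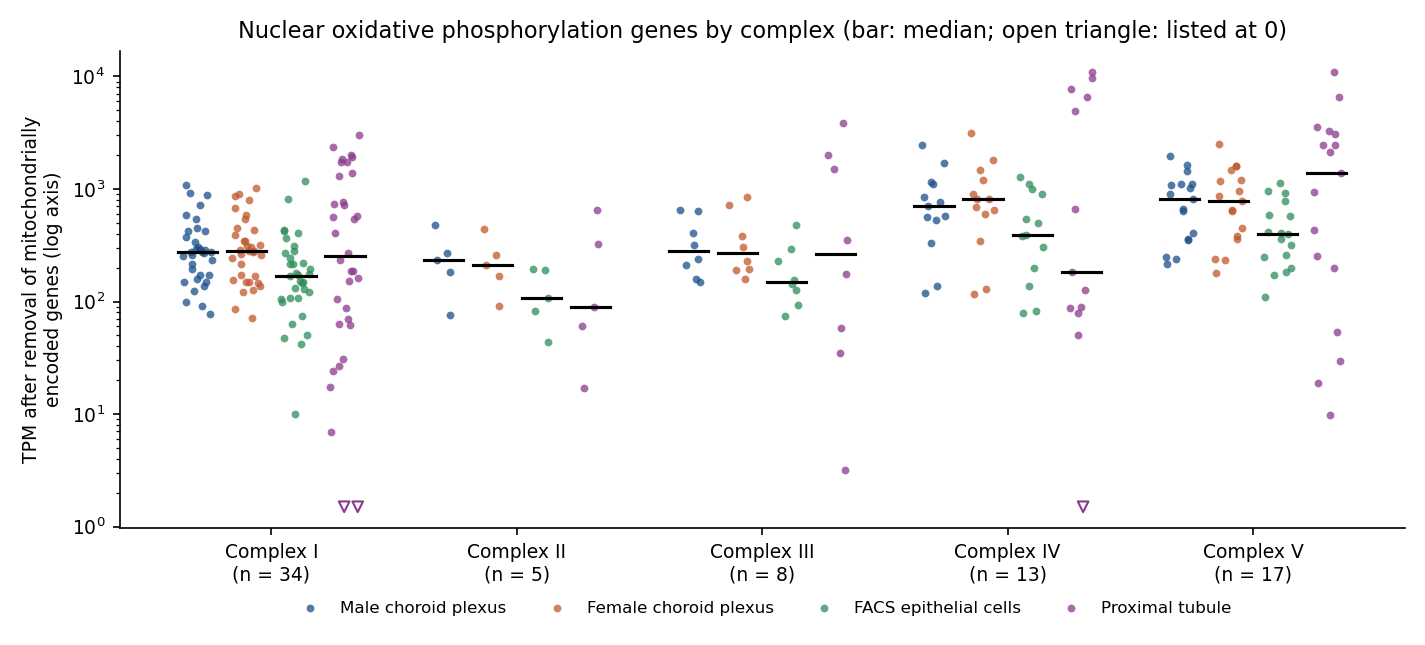
TPM after removal of the mitochondrially encoded genes (log axis) of the 77 nuclear members, 1 point for each gene, grouped by complex and coloured by library, with a bar at the median and an open triangle for a gene listed at 0. The male and female points of each complex lie close together, and the FACS points mostly lower, down to 9.99 (NDUFA1). Those of the proximal tubule reach from 3.16 (UQCRC1) to 10856 (COX6C), with 3 genes at 0.

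Female and male choroid plexus were alike to within 2-fold for all 77 nuclear members. Of their ratios 44 were above 0 and 33 below, where 434 of the 1985 named genes and 2768 of all 13938 genes were above 0. The share of all genes at least 2-fold higher in the female was 0.466% and at least 2-fold lower 1.05%, and among the 1985 named genes 0.151% and 0.403%, so a count of 0 among 77 is close to what the libraries show elsewhere. The median log2 ratio of the members was 0.02, beside -0.14 for the named genes and -0.18 for all genes. By complex the medians were 0.02 (I), -0.11 (II), -0.02 (III), 0.11 (IV) and -0.0013 (V), and the summed rescaled TPM was 1.03, 0.945, 1.09, 1.15 and 1.08 times that of the male. In complex IV, 11 of 13 members lay above 0.

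The largest female to male ratio was that of NDUFAF8 (ENSRNOG00000042653), an assembly factor of complex I, at a log2 of 0.81 (counting standard error 0.10), from 551 counts in the female and 317 in the male. ATP5ME, a membrane subunit of ATP synthase, and UQCR11, a small subunit of complex III, followed at 0.41 each. The lowest were NDUFA10L1, listed as a copy of the complex I gene NDUFA10, at -0.34, NDUFA3 at -0.30 and ATP5PB, of the peripheral stalk of ATP synthase, at -0.27. NDUFA10L1 had a count that was not whole in 3 libraries (3513.33 in the male), so reads were split between it and another gene there and its level is uncertain.

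The female to male ratios ran with transcript length. Across the 77 members the Spearman rho of the log2 ratio with the male effective length was -0.68, and across the 1985 named genes -0.54. Genes of 1 pair of libraries are not independent replicates, and all share the length correction of the same pair, so these are descriptions. The median log2 ratio was 0.16 for the 33 members under 300 bases, -0.03 for the 33 members between 300 and 1000 bases and -0.10 for the 11 longer ones. Among named genes the same length classes had medians of 0.06, -0.05 and -0.19, all below those of the members. The part of length in the female to male difference was not tested.

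**Figure D4:**
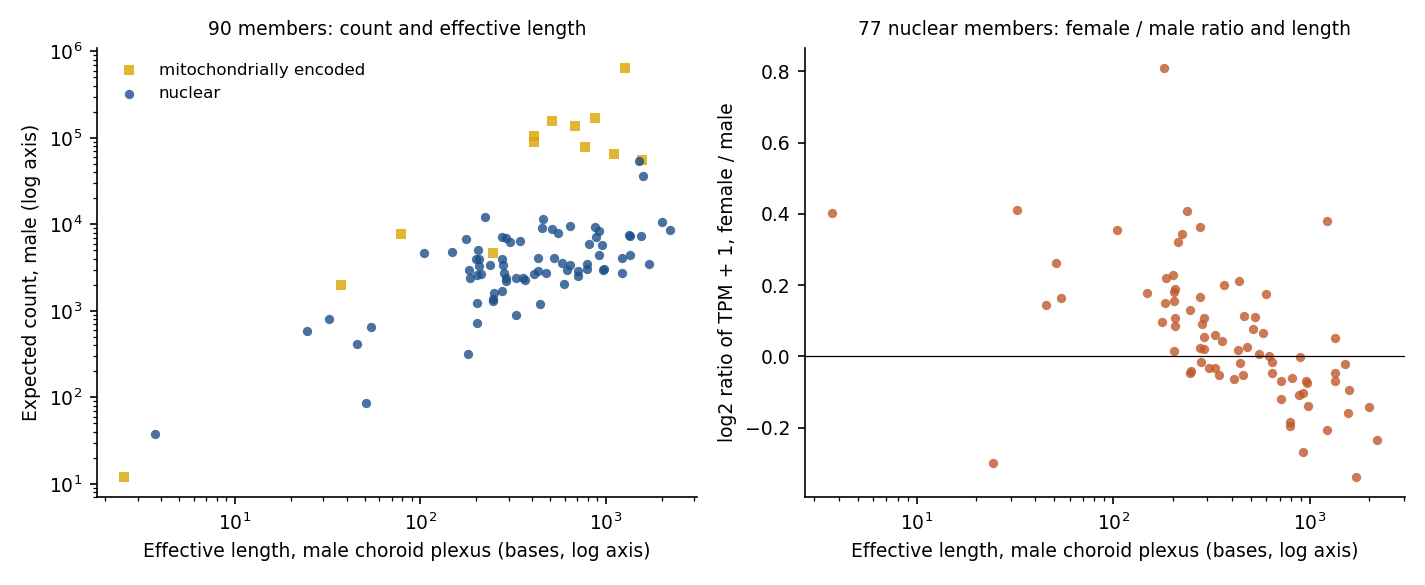
Expected count against effective length (bases) in the male library for the 90 members (left, both axes log), and the log2 ratio of rescaled TPM + 1 between female and male against the male effective length (log axis) for the 77 nuclear members (right), 1 point for each gene. The ratios go from a median of 0.16 below 300 bases to -0.10 at 1000 bases and above.

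Sorted epithelial cells had lower values than whole male choroid plexus for most nuclear members, as for most genes. In this comparison 73 of 77 ratios were below 0, where 1672 of the 1985 named genes and 11127 of all 14097 genes were too. Of the members, 20 were at least 2-fold lower and 0 were at least 2-fold higher. Of all genes, 27.5% were at least 2-fold lower and 4.54% at least 2-fold higher, and of the named genes 31.3% and 1.36%, so the members' 20 of 77 lies near the background. The median log2 ratio was -0.81, against -0.69 for the named genes and -0.61 for all genes. As the TPM of every library has a fixed sum, the level of TTR, at 260358 rescaled TPM in the male and 415242 in the FACS library, leaves less of that total for other genes in the latter. The part of TTR in these ratios was not tested. The members' ratios were tighter than those of the named genes, with an interquartile range of 0.58 against 0.90. Centred on the median of all genes, 2 members were at least 2-fold lower and 2 at least 2-fold higher, where the named genes had 6.7% and 5.59%. Without the 10 highest genes of the libraries these were 5 and 1 members, where the named genes had 10.9% and 3.45%. The count thus depends on the scaling.

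The sums by complex were 0.676 (I), 0.501 (II), 0.576 (III), 0.628 (IV) and 0.566 (V) times those of the male. In complex I, NDUFS1 (ENSRNOG00000011849), the largest iron-sulfur subunit of the electron entry arm, had 174 rescaled TPM in the male, 147 in the female and 50.7 in the FACS library, a log2 ratio of -1.76 (counting standard error 0.03). The complex I genes highest in the male differed among themselves. The short member NDUFA3 was at 1075 and 424 TPM in the male and FACS libraries, NDUFA11 at 921 and 815, and NDUFA13 at 879 and 1168. NDUFA13 at 0.41 and NDUFAF8 at 0.62 had the highest FACS to male ratios.

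NDUFA1 had the lowest, at -5.35, but with 0.40 counts in the FACS library it was under the floor of 3 counts, against which it was at least 6.04-fold lower. In complex II, SDHA, the flavoprotein that oxidises succinate, was at 235 rescaled TPM in the male and 82.3 in the FACS library (log2 ratio -1.50), and the membrane anchors SDHC and SDHD were at -1.28 and -0.50. Of the complex III genes highest in the male, UQCRH was at -1.50, CYC1, the cytochrome c1 that hands electrons to cytochrome c, at -0.46 and UQCR11 at -0.42. Complex IV held members of little difference, such as COX6A1 at -0.05 and COX4I1 at -0.17, beside COX8A at -0.94, COX6C at -0.90 and COX8B, known as the muscle isoform of subunit 8, at -1.41.

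Of the complex V genes highest in the male, ATP5F1E was at -1.04, ATP5F1B, the catalytic beta subunit, at -1.05, and ATP5MF at -0.65. All 5 genes of the F1 head lay between -1.34 and -0.88. ATP5ME at 0.03 and ATP5IF1, the inhibitor of ATP hydrolysis by complex V, at 0.02 were the members of this complex above 0. The immune markers were higher and HBB lower in the FACS library than in whole male tissue, as given above. The sum of the stroma markers was higher mainly by DCN, while PDGFRA was lower. The part of these markers in the ratios was not tested.

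In the proximal tubule library the nuclear members parted widely, and the highest member of complex III had 1215 times the rescaled TPM of the lowest. Against the male choroid plexus, 30 of 77 were at least 2-fold higher, 29 at least 2-fold lower and 18 between. Among all genes 12.1% were at least 2-fold higher and 71.0% at least 2-fold lower, and among the named genes, which were picked by their male level as the members were, 12.6% and 75.5%. The members' median log2 ratio was 0.31, that of the named genes -4.17 and that of all genes -2.27. The interquartile range of the members, 5.29, was as wide as that of the named genes, 5.23. Of the 1985 named genes, 670 (33.8%) were listed at 0 counts in this library, against 0 in the male and 8 in the FACS library. With the mitochondrially encoded genes kept, 14 members were at least 2-fold higher and the median was -1.39. The named genes then had 3.32% at least 2-fold higher and a median of -5.42. Centred on the median of all genes, 48 members were higher and 16 lower, where the named genes had 25.4% and 59.1%. The 42 members of at least 300 bases alone had a median of -0.93.

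**Figure D5:**
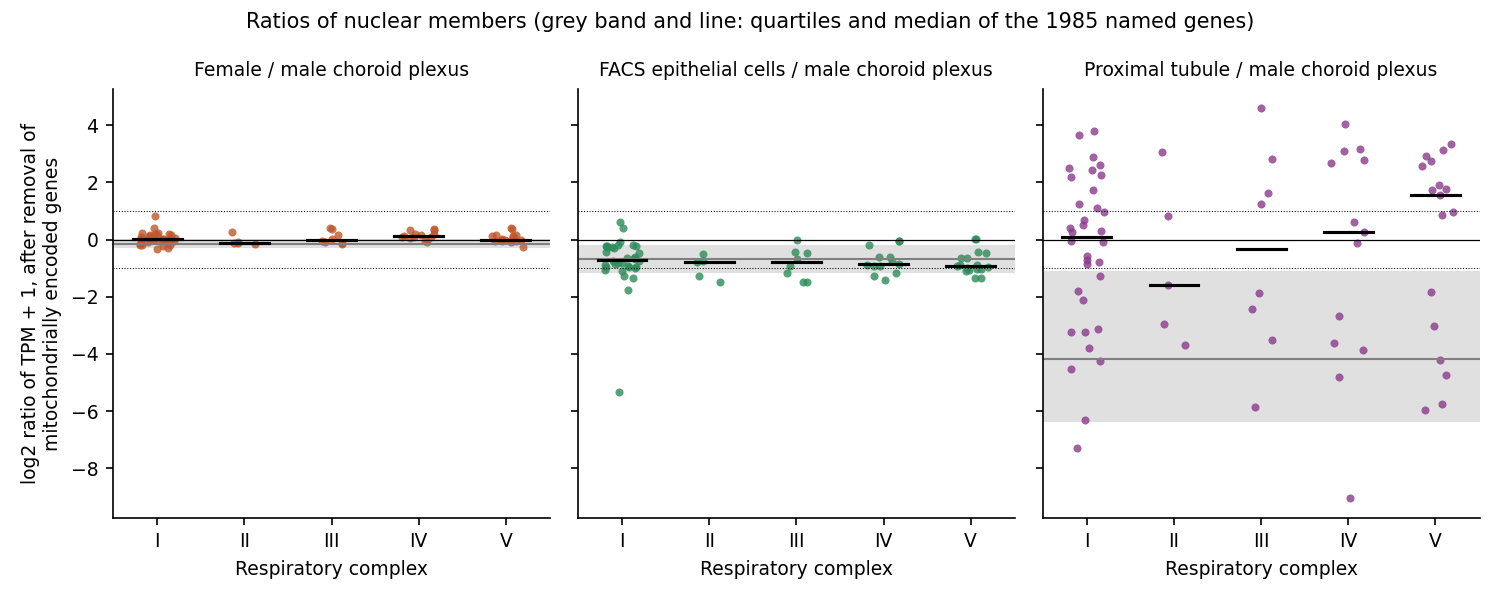
log2 ratios of rescaled TPM + 1 of the 77 nuclear members against male choroid plexus, by complex, for the female, FACS and proximal tubule libraries, 1 point for each gene with a bar at the median, dotted lines at 2-fold, and the median and quartiles of the 1985 named genes as a grey line and band. The female ratios are all within 2-fold, the FACS ratios center on -0.81, and those of the proximal tubule run from -9.05 (COX8B, listed at 0) to 4.59 (UQCRB).

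Complex I had 11 members at least 2-fold higher and 11 at least 2-fold lower. NDUFB3, an accessory subunit of the membrane arm, had 1214 counts in the male, 1195 in the female, 650 in the FACS and 7620 in the proximal tubule library, a log2 ratio of 3.81 for the last against the male, and NDUFA6 was at 3.67. Of the genes highest in the male, NDUFA3 was at 1.12, NDUFA13 at -0.70 and NDUFA11 at -3.13. Core subunits of the matrix arm, named after their values were seen, lay on both sides. NDUFS1 had 13144 counts and NDUFV2 8198 counts in the proximal tubule library, against 8585 and 2988 in the male, whereas NDUFV1, which binds NADH and is the partner of NDUFV2, had 96 against 4484.

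NDUFS8 had 126 counts against 2763 and NDUFS3 had 566 against 3070. NDUFS7 (ENSRNOG00000024568), the subunit with the last iron-sulfur cluster before ubiquinone, was listed at 0, against 2503 counts in the male, 2384 in the female and 2224 in the FACS library. With a floor of 3 counts for the library, NDUFS7 was at least 378-fold lower than in the male. The assembly factor NDUFAF8, also listed at 0, was at least 43.2-fold lower.

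Complex II, alone of the complexes, did not have a higher summed rescaled TPM in the proximal tubule, at 1134 against 1239 in the male. SDHA had 10558 counts in the male, 9593 in the female, 4001 in the FACS and 358 in the proximal tubule library, and its log2 ratio to the male was -3.70. SDHC was at -2.96 and SDHD at -1.58, while SDHB, the iron-sulfur subunit bound to SDHA, was at 0.81. The assembly factor SDHAF4, at 3.08, made up 645 of the 1134 TPM, from 233 counts at an effective length of 34.4 bases.

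In complex III a pair of partners lay far apart. UQCRC1 and UQCRC2, the pair of core proteins that face the matrix, are named here after their values were seen. UQCRC1 (ENSRNOG00000032134) had 7260 counts in the male, 6936 in the female, 4127 in the FACS and 44 in the proximal tubule library. UQCRC2 (ENSRNOG00000036742) had 7424, 6660, 2818 and 24347 counts in the same libraries. In rescaled TPM the 2 genes were near each other in the male, at 241 and 213, and at 3.16 and 1515 in the proximal tubule library.

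UQCRB, which binds ubiquinone within the complex, had the highest ratio of the 77, a log2 of 4.59 (counting standard error 0.06), from 723 counts in the male, 722 in the female, 713 in the FACS and 7248 in the proximal tubule library. UQCRH was at 1.64, whereas UQCR11 at -1.86, the Rieske protein UQCRFS1 at -2.44 and CYC1 at -3.52 lay below. Of the 8 complex III members, 4 were at least 2-fold higher, 4 at least 2-fold lower and 0 between.

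Complex IV had the highest sum ratio, 3.73 times the male, carried by a few small subunits. COX6C (6.40 times the male), COX7C, COX7B, NDUFA4 and COX7A2L2 had between 4965 and 10856 rescaled TPM each in the proximal tubule library. COX7C had 2632 counts in the male, 2949 in the female, 1383 in the FACS and 18201 in the proximal tubule library (log2 ratio 4.06). NDUFA4, named for complex I but a subunit of complex IV, was at 3.10, and COX7A2L2 at 2.80, while COX7A2L, an assembly factor of supercomplexes with a like name, was at -0.13. Copies near in sequence can exchange reads, so these levels are uncertain, though both genes had whole counts in every library.

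COX8A, the highest nuclear member of both whole tissues, had 12312 counts in the male, 15470 in the female, 6464 in the FACS and 183 in the proximal tubule library (log2 ratio -4.80). COX8B (ENSRNOG00000014656) had 643, 698 and 200 counts in the first 3 and was listed at 0 in the last, at least 68.8-fold lower than in the male. COX6A1 at -3.86 and COX4I1 at -3.63 were also below the male.

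Complex V, the ATP synthase, summed to 2.65 times the male, and the parts of the enzyme differed. Of the F1 head, ATP5F1C, the central shaft, had 7121 counts in the male, 7101 in the female, 3844 in the FACS and 20195 in the proximal tubule library. The alpha and beta subunits ATP5F1A and ATP5F1B, which alternate in the catalytic ring, had 36230 and 54664 counts in the male but 877 and 3063 in the proximal tubule library, and ATP5F1D had 9521 and 121. The rescaled TPM of ATP5F1A, ATP5F1B, ATP5F1C, ATP5F1D and ATP5F1E was 53.6, 197, 2436, 9.75 and 3573 in the proximal tubule library, against 1021, 1622, 358, 664 and 1982 in the male.

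All 3 genes of the c-ring, whose mature proteins are the same, lay lower, with ATP5MC1 at -5.76, ATP5MC2 at -4.73 and ATP5MC3 at -1.83. The peripheral stalk lay higher, with ATP5PF at 3.36, ATP5PD at 3.12, ATP5PO at 1.74 and ATP5PB at 0.98, and so did the membrane subunits ATP5MF at 2.92, ATP5MG at 2.56 and ATP5ME at 1.56. ATP5IF1 was at 1.92. These groups of subunits were set after the values were seen.

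The length of the transcript went with the proximal tubule ratios too. The 33 members under 300 bases had a median log2 ratio of 1.25, the 33 between 300 and 1000 bases of -0.78 and the 11 of 1000 bases or more of -3.03. Among the named genes the same classes had 0.47, -2.57 and -4.85, so the members were above the named genes in each class. The part of length, depth or RNA quality in these ratios was not tested, and tissue and library cannot be told apart.

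The promoters of the nuclear members were read for motifs of 3 factors known to act on respiratory genes, in windows of 300 bases, from 250 before to 50 after the start, from RefSeq on rat build GRCr8. Of the 77 members 67 matched an entry. The letters sought on both strands were those of the palindromic NRF1 motif, CCGGAAG (the ETS family, which includes GABP) and AAGATGGCG (YY1). The NRF1 letters were in 22.4% of the 67 windows, the ETS letters in 31.3% and the YY1 letters in 14.9%, and at least 1 of the 3 in 59.7%. The other 1473 named genes had 16.02%, 19.4%, 4.35% and 34.1%, and all 27457 genes with an entry had 6.34%, 9.63%, 1.99% and 16.1%. Such a match is a description of letters and not a site.

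Members of high and low proximal tubule ratio did not separate plainly by these letters. The 26 windows of members at least 2-fold higher held NRF1 letters in 8, ETS letters in 10 and YY1 letters in 5, and the 25 of members at least 2-fold lower in 5, 6 and 4. The median G+C content was 54.2% and 56.0% in these sets. The windows shown are those of the complex III partners on opposite sides and of a pair of ATP synthase members with more than 1 motif, over the 180 bases from 150 before to 30 after the start, 5′ to 3′ along the gene, with the motif letters in capitals. UQCRC1 lies at chr8:118468073-118468252 (+), UQCRC2 at chr1:184599090-184599269 (+), ATP5ME at chr14:1464710-1464889 (+) and ATP5PF at chr11:37375072-37375251 (-).
UQCRC1: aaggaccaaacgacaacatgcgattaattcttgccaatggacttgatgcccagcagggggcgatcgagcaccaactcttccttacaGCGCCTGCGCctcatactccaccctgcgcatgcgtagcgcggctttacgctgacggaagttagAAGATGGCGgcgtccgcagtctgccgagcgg
UQCRC2: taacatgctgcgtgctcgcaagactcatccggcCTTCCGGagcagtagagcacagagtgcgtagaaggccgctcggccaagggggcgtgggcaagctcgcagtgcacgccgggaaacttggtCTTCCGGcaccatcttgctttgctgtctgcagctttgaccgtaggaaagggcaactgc
ATP5ME: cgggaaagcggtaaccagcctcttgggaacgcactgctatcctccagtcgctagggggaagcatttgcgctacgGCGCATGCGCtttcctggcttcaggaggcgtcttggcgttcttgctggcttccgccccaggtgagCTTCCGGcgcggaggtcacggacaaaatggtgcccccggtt
ATP5PF: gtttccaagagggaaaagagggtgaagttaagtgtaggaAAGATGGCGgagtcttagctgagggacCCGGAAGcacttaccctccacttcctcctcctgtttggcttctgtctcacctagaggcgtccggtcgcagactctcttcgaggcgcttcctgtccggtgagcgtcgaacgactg

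UQCRC1 carries 1 NRF1 and 1 YY1 match, UQCRC2 carries 2 ETS matches, ATP5ME has 1 NRF1 and 1 ETS match and ATP5PF has 1 YY1 and 1 ETS match. Their log2 ratios of proximal tubule to male were -5.86, 2.82, 1.56 and 3.36, and their FACS to male ratios -0.91, -1.49, 0.03 and -0.47.

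Genes that feed or serve the chain were read from lists beside the members. Of the tricarboxylic acid cycle and pyruvate dehydrogenase, which supply NADH and succinate, 14 of 16 genes were named. All 14 were at least 2-fold lower in the FACS library than in the male, with log2 ratios from -1.61 (CS, citrate synthase) to -1.13 (IDH3G) and a median of -1.33, where the members' median was -0.81. Of all genes 27.5% and of the named genes 31.3% were at least 2-fold lower, and centred on the median of all genes, for these lists an alternative chosen after seeing the data, 0 of the 14 were. Between female and male, 0 of 14 passed 2-fold. In the proximal tubule 3 were at least 2-fold higher and 6 lower, where all genes had 12.1% and 71.0%, and after centring 8 were higher and 5 lower. For this list and those below, the named genes after centring had 25.4% higher and 59.1% lower in the proximal tubule. In the FACS library the named genes then had 5.59% higher and 6.7% lower. The genes of the cycle and pyruvate dehydrogenase showed a wide range in the proximal tubule. They ran from CS, listed at 0 against 2396 counts in the male, to DLD, the shared dehydrogenase subunit, at 3.27.

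Of the carriers and pores, 10 of 12 were named, with 4 at least 2-fold lower in the FACS library, where all genes had 27.5% and the named genes 31.3%, and 0 after centring. In the female 0 were. In the proximal tubule 4 were at least 2-fold higher and 5 lower, where all genes had 12.1% and 71.0%, and after centring 5 were higher and 3 lower. CYCS, cytochrome c, the carrier between complexes III and IV, had 4884 counts in the male, 4726 in the female, 2900 in the FACS and 101016 in the proximal tubule library (log2 ratio 5.50, above every one of the 77 members). CKB, a creatine kinase that passes on the phosphate of ATP, had 77917 counts in the male and was listed at 0 in the proximal tubule. VDAC1, the pore of the outer membrane, had the lowest FACS to male ratio of this list, -1.58, and MPC2, of the pyruvate carrier, the highest, -0.14.

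Of 26 assembly factors outside the members 3 were named, and in the proximal tubule 2 of them were at least 2-fold higher, where all genes had 12.1%, and 3 after centring, with COX16 at 3.17 and UQCC2 at 0.06. The 26 named proteins of the mitochondrial ribosome, which translates the 13 mitochondrially encoded messages, had 5 members at least 2-fold lower and 0 higher in the FACS library, where 27.5% of all genes were lower, and 2 lower and 1 higher after centring, with MRPL14 at 0.66 the highest. In the proximal tubule 9 were at least 2-fold higher and 12 lower, where all genes had 12.1% and 71.0%, and after centring 14 were higher and 9 lower, with MRPS36 at 3.12 the highest, and 9 of 26 had under 3 counts. MRPL33, the lowest in both, had 16 counts in the male, 5 in the FACS and 0 in the proximal tubule library, and was listed at 0 TPM in the last 2, so it is among the 5 lower in the FACS library by a TPM of 0 although it had 5 counts there.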

How the data were processed

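RNA of 4 pooled libraries, 1 for each condition, was sequenced in paired ends. Against the rat genome Rnor_6.0 with Ensembl release 103, the authors ran STAR (version 2.7.2a) as aligner and then RSEM (version 1.3.3). Per gene they deposited an expected count, estimated and thus not always whole, the TPM, whose sum is 1000000 per library, and the effective length of the transcript in bases. Strandedness and the RSEM settings are not given in the sources used here. The deposited FPKM was not used. The authors left mitochondrial genes out of the reference before the comparison with the proximal tubule. Here, instead, the deposited TPM of all other genes was rescaled to 1000000 after leaving out the 13 encoded in the mitochondrion. Total expected counts were 28324976 (male), 25376480 (female), 23873318 (FACS) and 25130213 (proximal tubule).

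Ratios were log2 of (rescaled TPM + 1), which understates changes of low genes, over genes at or above 0.5 TPM in either library, and 2-fold was the call. Shares have 95% Wilson intervals, and a value of 0 was bounded by 3 counts in the library. Python 3.11.15, numpy 2.4.6, pandas 2.3.3, scipy 1.17.1 and matplotlib 3.10.9 were used, and the steps were tested on simulated data. Gene names came from the paper's lists, shortened at the lowest levels, so that lists of other genes are counted over their named members. The members, gene lists, markers and subunit groups were chosen with earlier results of these data known. Named in the text are all mitochondrially encoded genes, the 3 nuclear members of each complex highest in the male, the 3 largest ratios in each direction of each comparison, members under 3 counts in a library, copies and isoforms, and the highest and lowest ratio of each other list. Other genes were named after their values were seen, and 1 member is counted but not reported here by name. Promoter windows came from RefSeq on GRCr8 and carry no coordinate of the deposited files. The alternatives were mitochondrially encoded genes kept, a pseudocount of 0.1, no filter or a filter of 10 counts, CPM, centring on the median of all genes, removal of the 10 highest genes, structural subunits alone, effective lengths of at least 300 bases, other reference libraries, and, for shares, TPM or all counts.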

Additional observations from a re-analysis of the deposited data

How the results depend on the processing

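With 1 library for each condition no result has a replicate check, no library could be left out, and depth limits low genes most in the proximal tubule library. No paired analysis was possible because each group holds 1 library. Over the main results and their alternatives, 72 values moved, 3 turned their sign and 59 stayed within their limits, and the cause of the moves was not tested. The share of mitochondrially encoded genes was 8.37% (male), 6.29% (female), 6.16% (FACS) and 72.1% (proximal tubule) of TPM, and 8.35%, 6.27%, 5.67% and 72.1% without MT-ATP8, an alternative chosen after seeing the data. The nuclear share, in the same order, was 4.07%, 4.41%, 2.49% and 11.1% of rescaled TPM, 1.46%, 1.63%, 1.01% and 4.37% of counts for structural subunits alone, 1.10%, 1.18%, 0.733% and 2.67% for lengths of at least 300 bases, and 1.42%, 1.60%, 0.997% and 1.34% of all counts. The share of each mitochondrially encoded gene moved in all 52 cases between counts and TPM. Centring the other gene lists, chosen after seeing the data, moved 12 of their counts and left 30.

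For FACS against male, the members at least 2-fold higher were 2 after centring and 1 without the 10 highest genes, where the named genes had 5.59% and 3.45%. Those at least 2-fold lower were 10 in CPM, 2 after centring and 5 without the 10 highest genes. The named genes had 13.9%, 6.7% and 10.9% lower in these settings. Of the 42 members with at least 300 bases in every library, 13 were lower, beside 31.3% of the named genes of all lengths. The median log2 ratio was -0.78 with mitochondrially encoded genes kept, -0.82 with a pseudocount of 0.1, -0.79 with at least 10 counts, -0.53 in CPM, -0.20 centred, -0.36 without the 10 highest genes, -0.83 for structural subunits, -0.82 for lengths of at least 300 bases and -0.83 against the female. For female against male it was 0.057 with mitochondrially encoded genes kept, 0.16 in CPM, 0.21 centred, 0.14 without the 10 highest genes and, with its sign turned, -0.050 for lengths of at least 300 bases. For the proximal tubule, 14 of the 77 members were at least 2-fold higher with mitochondrially encoded genes kept and 48 of 77 centred. Among the 42 members of at least 300 bases 12 were higher, and 16 of the 77 were lower after centring. Of the named genes of all lengths, 3.32%, 25.4% and 12.6% were higher in these settings, and 59.1% were lower after centring. The members' median for the proximal tubule turned to -1.39 with mitochondrially encoded genes kept and to -0.93 for lengths of at least 300 bases. It was 0.42 with at least 10 counts, 0.99 in CPM, 2.58 centred, 0.023 without the 10 highest genes, 0.28 against the female and 0.66 against the FACS library.

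As a share of counts in place of rescaled TPM, complexes I to V held 0.370%, 0.107%, 0.154%, 0.246% and 0.623% in the male, 0.404%, 0.109%, 0.173%, 0.307% and 0.681% in the female, 1.15%, 0.0587%, 0.579%, 1.33% and 1.45% in the proximal tubule, and, without complex II, 0.296%, 0.104%, 0.198% and 0.384% in the FACS library.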

Other observations

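Genes of glycolysis, which makes ATP and pyruvate in the cytosol, lay mostly lower in the proximal tubule library, as most genes did. Of 19 listed genes of glycolysis and lactate 12 were named, and in the proximal tubule 11 of them were at least 2-fold lower than in the male choroid plexus and 1 was at least 2-fold higher, where 71.0% of all genes were at least 2-fold lower. Of the named genes, picked by their male level as these were, 75.5% were at least 2-fold lower. The median log2 ratio of the 12 was -5.55, beside -4.17 for the named genes, and their summed rescaled TPM was 858 against 6467. PKM, which makes pyruvate, had 21355 counts in the male, 18859 in the female and 11854 in the FACS library and was listed at 0 in the proximal tubule. HK1 and PFKL were listed at 0 too, as were 33.8% of the named genes. TPI1 was the highest, at 1.12. In the FACS library 6 of the 12 were at least 2-fold lower than in the male, from PGK1 at -1.29 to PFKL at -0.77, beside 27.5% of all genes and 31.3% of the named genes, and in the female 0 of 12 passed 2-fold. Centred on the median of all genes, an alternative chosen after seeing the data, 11 were lower in the proximal tubule and 0 in the FACS library. Of the named genes, 59.1% and 6.7% were then lower.

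Antioxidant enzymes of the mitochondrion had 6 of 8 genes named. In the proximal tubule 5 of 6 were at least 2-fold lower than in the male, where 71.0% of all genes and 75.5% of the named genes were, with GPX4, which reduces lipid peroxides, the lowest at -5.87 and PRDX3, a peroxiredoxin of the matrix, the highest at 0.07. In the FACS library 3 of 6 were at least 2-fold lower, from PRDX3 at -1.38 to PRDX5 at -0.50, where 27.5% of all genes and 31.3% of the named genes were. After centring, 3 were lower and 1 higher in the proximal tubule, and 0 lower in the FACS library. Of 16 listed genes of mitochondrial transcription and its regulators only ESRRA, a nuclear receptor that acts on respiratory genes, was named. It had 3769 counts in the male, 4041 in the female and 3028 in the FACS library and was listed at 0 in the proximal tubule.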
